A study of Homo sapiens with 8 samples.

Results

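The genes described here encode 10 cytosolic and mitochondrial heat shock proteins and their partners: HSPA1A, HSPA1B, HSPA8, HSPH1, HSP90AA1, HSP90AB1, DNAJB1, HSPB1, BAG3 and HSPD1. They were taken by gene name from the gene count table, where each name had a single row, so 10 of the 78691 rows were members. All 10 passed the filter on low counts in every comparison. mRNA was measured by poly(A) RNA-seq with paired-end reads in 4 groups of 2 libraries each. The C4-2B control group was the castration-resistant prostate adenocarcinoma line C4-2B carrying an empty lentiviral vector, and the C4-2B MYCL group was the same line with a lentiviral vector driving human MYCL, the transcription factor L-MYC, from the EF1A promoter with a fluorescent reporter. The NCI-H660 shCtrl group was the neuroendocrine prostate cancer line NCI-H660 with a non-targeting control, and the NCI-H660 shMYCL group was that line with RNA interference against MYCL. The design text gives an adenoviral vector for the knockdown, and the study's methods describe a transient adenoviral vector with several miR30-type shRNAs in NCI-H660 as well as a stable lentiviral shRNA, whereas the labels speak of stable expression or knockdown. Which of these made the NCI-H660 libraries was not settled. Each arm was 1 line with 1 construct, and nothing in the labels states that the libraries of a group came from separate cultures beyond the word biological for the C4-2B control libraries. The p-values therefore measure the spread between these libraries, which may be technical.

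Heat shock proteins are molecular chaperones that bind unfolded or partly folded proteins. HSP70 proteins work in a cycle: a J-domain partner of the HSP40 family delivers the client and triggers ATP hydrolysis, and a nucleotide exchange factor, such as an HSP110 or BAG protein, releases it. HSP90 takes over many signalling clients, small heat shock proteins hold unfolded proteins without using ATP, and HSP60 folds proteins inside mitochondria. Some of these genes are constitutively active, others are induced by the factor HSF1, which binds inverted repeats of the unit GAA known as heat shock elements.

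The libraries held 15177071 to 32344170 counts. MYCL itself had 371 and 320 counts in C4-2B control and 65524 and 70253 in C4-2B MYCL, against 1863 and 1602 in NCI-H660 shCtrl and 165 and 198 in NCI-H660 shMYCL, so it went with the labels in each library. The summed level of 10 luminal prostate markers was 2292 to 3160 TPM in C4-2B and 1268 to 1422 TPM in NCI-H660, where KLK3, KLK2, FOLH1 and HOXB13 had at most 3 counts per library, while the keratins KRT8 (770 to 832 TPM, against 303 to 372 TPM in C4-2B) and KRT18 (451 to 623 TPM, against 307 to 366 TPM) were higher. The summed level of 10 neuroendocrine markers was 6.94 to 7.35 TPM in C4-2B, in which 5 of them in the control and 8 in the MYCL group had at most 3 counts in either library, against 1036 to 1478 TPM in NCI-H660. The summed level of 10 stromal and immune markers was 3.81 to 7.62 TPM over all libraries, with 6 of the 10 at 3 counts or fewer in each group, DCN, PECAM1, PTPRC and CD3E among them.

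The heat shock element was searched for in promoter windows reaching from 250 bases before to 50 after each annotated start, taken from RefSeq on GRCh38.p14, which held 16 windows for the 10 members. The element was written as GAANNTTCNNGAA or TTCNNGAANNTTC, which are reverse complements of each other, so that both strands were covered and overlapping matches were kept. An exact match stood in a window of 4 members, HSPA8, HSP90AA1, HSP90AB1 and HSPD1, whereas 0.608% of the 27305 genes in the table had one (0.49% of all windows). With at most 1 of the 9 fixed letters different, HSPA1A, HSPA1B, DNAJB1 and HSPB1 were added, giving 8 members against 7.6% of all genes (6.24% of all windows). HSPH1 and BAG3 had no match in these windows. The E-box CACGTG, the palindromic sequence bound by MYC family factors with MAX, was found in the window of the first HSPD1 start and in no other member, against 8.77% of all genes (7.26% of all windows). The stretches below hold the best matches before each start with up to 20 bases on each side, and are shown so that the matches of the constitutive and inducible members described below can be read side by side. All are written 5′ to 3′ on the strand of the gene, and capitals mark the letters that fit the heat shock element in the best matches of the window (exact where it has any, otherwise those with 1 letter different), or CACGTG in the first HSPD1 window. Matches with 1 letter different beside exact ones are left in lower case, and those of HSP90AB1 at −217 to −205 and of DNAJB1 start 3 at 2 to 14 are not shown.
HSPA8, chr11:123062159-123062386, minus strand: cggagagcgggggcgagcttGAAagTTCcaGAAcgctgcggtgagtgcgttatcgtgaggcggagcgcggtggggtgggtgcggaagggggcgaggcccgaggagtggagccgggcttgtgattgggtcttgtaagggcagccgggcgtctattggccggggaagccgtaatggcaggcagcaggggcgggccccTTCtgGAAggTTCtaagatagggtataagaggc
HSP90AA1, start 2 of 2, chr14:102087100-102087152, minus strand: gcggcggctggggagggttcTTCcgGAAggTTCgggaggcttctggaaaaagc
HSP90AB1, start 3 of 3, chr6:44247758-44247863, plus strand: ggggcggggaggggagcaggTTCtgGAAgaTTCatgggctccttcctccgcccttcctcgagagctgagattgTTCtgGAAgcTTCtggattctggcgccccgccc
HSPD1, start 2 of 2, chr2:197500048-197500090, minus strand: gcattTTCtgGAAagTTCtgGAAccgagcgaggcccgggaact
HSPD1, start 1 of 2, chr2:197500337-197500382, minus strand: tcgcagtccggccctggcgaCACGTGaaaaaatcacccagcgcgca
HSPA1A, chr6:31815417-31815469, plus strand: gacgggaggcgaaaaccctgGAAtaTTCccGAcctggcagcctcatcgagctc
HSPA1B, chr6:31827613-31827665, plus strand: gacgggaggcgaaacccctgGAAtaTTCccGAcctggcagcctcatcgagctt
DNAJB1, start 2 of 3, chr19:14518417-14518494, minus strand: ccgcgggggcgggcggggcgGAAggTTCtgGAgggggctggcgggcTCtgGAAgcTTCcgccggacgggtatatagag
HSPB1, chr7:76302471-76302523, plus strand: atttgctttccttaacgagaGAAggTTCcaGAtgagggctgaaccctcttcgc

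The HSPA1A and HSPA1B stretches were identical at 51 of 53 bases. HSPA8 held 2 exact matches, at −230 to −218 and −55 to −43 from its start, HSP90AB1 held 2, at −165 to −153 and −112 to −100, and HSPD1 held 2 that overlap, at −245 to −233 and −240 to −228. A match is a description of letters and was not tested for binding in these cells.

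**Figure D1:**
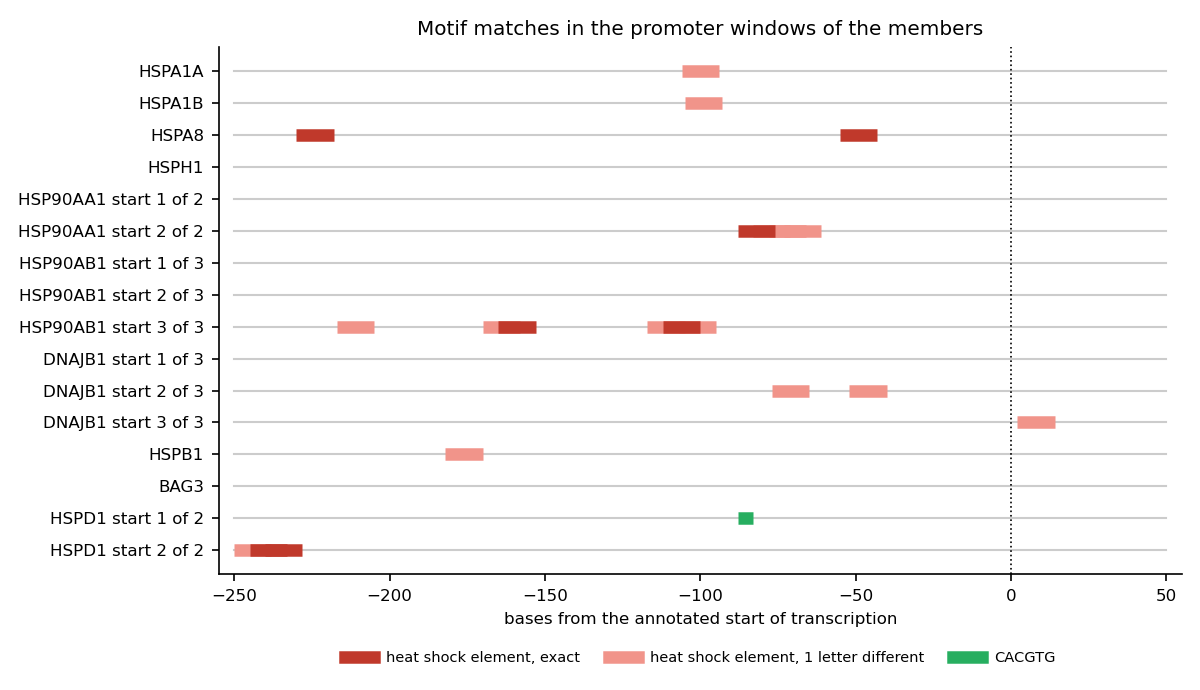
Matches in the 16 promoter windows of the members, drawn by distance in bases from the annotated start (dotted line at 0). Dark red blocks are exact heat shock elements, light red blocks differ in 1 of the 9 fixed letters, and the green block is CACGTG. Exact elements lie in 4 members, and windows of HSPH1 and BAG3 are empty.

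Levels between genes were compared on TPM, a measure of transcript abundance that divides by transcript length. HSP90AB1 was the most abundant member in each C4-2B library and HSP90AA1 in each NCI-H660 library, and HSPA1A was the rarest in C4-2B and BAG3 in NCI-H660. Summed over the 10 members, the level was 6311 and 5819 TPM in C4-2B control, 4513 and 4579 TPM in C4-2B MYCL, 7372 and 6514 TPM in NCI-H660 shCtrl and 8956 and 9841 TPM in NCI-H660 shMYCL. Both MYCL libraries of C4-2B lay below both controls, and both knockdown libraries of NCI-H660 lay above both of theirs. The HSP90 genes held 41.8 to 47.2% of this sum in C4-2B and 62.5 to 65.7% in NCI-H660. By their share of all counts, the members stood in the other order between the controls. That share was 1.119 and 1.026% in C4-2B control and 0.9997 and 0.9344% in NCI-H660 shCtrl.

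**Figure D2:**
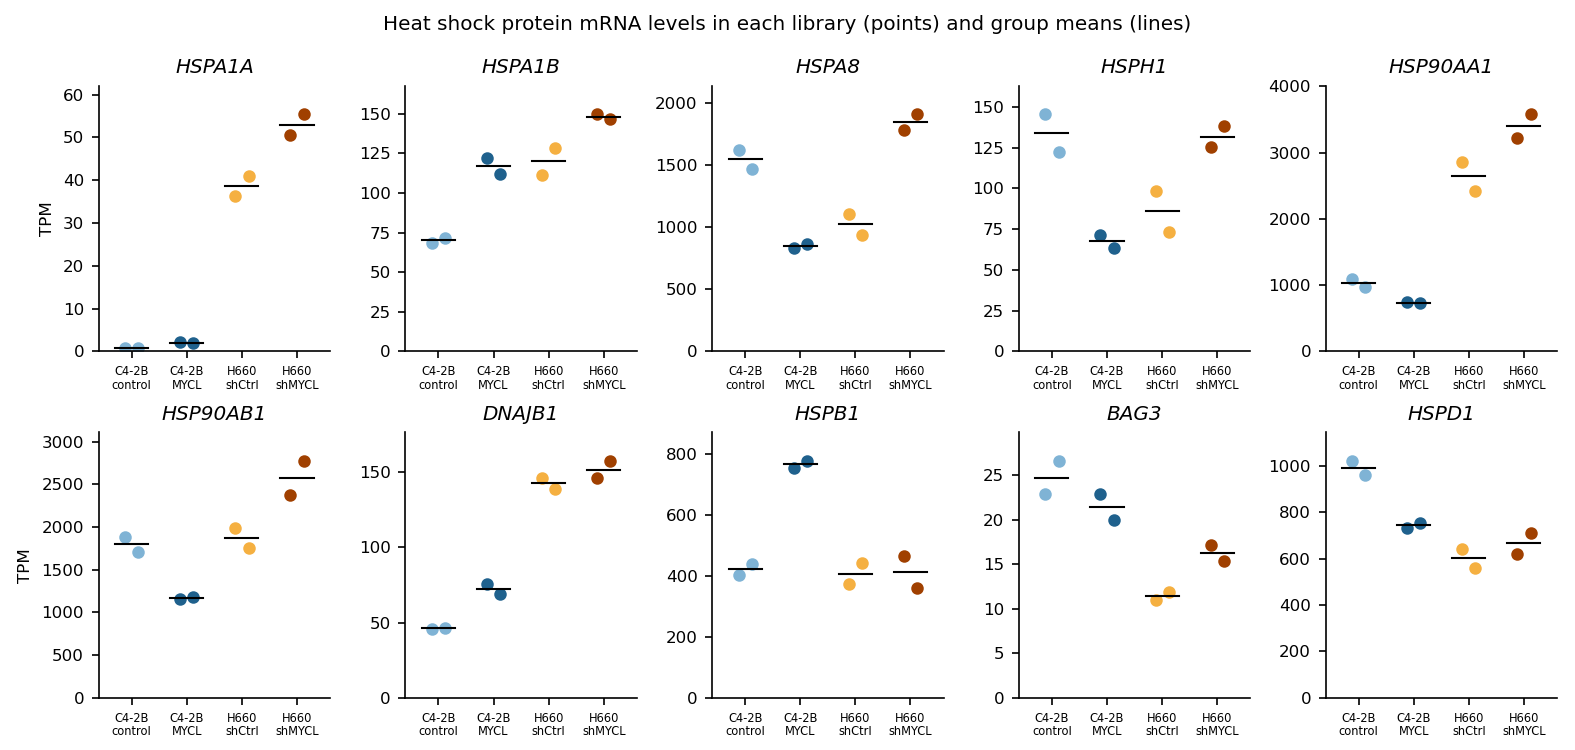
mRNA level in TPM (vertical axis, from 0) of each member in the 8 libraries, with 1 point per library and a line at the mean of each group of 2. HSPA8 and HSPH1 are lower in C4-2B MYCL than in C4-2B control and higher in NCI-H660 shMYCL than in shCtrl, whereas HSPA1B, DNAJB1 and HSPB1 are higher in C4-2B MYCL than in C4-2B control.

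The comparison of C4-2B MYCL with C4-2B control asked which members moved when L-MYC was raised in adenocarcinoma cells. Log2 fold changes of counts and their p-values come from the quasi-likelihood test of edgeR, adjusted over every gene tested by the Benjamini-Hochberg method, and a gene was called at an adjusted p under 0.05 with a change of at least 0.5. Of the 10 members, 6 were called, 4 higher and 2 lower, where 19.9% of the 16866 genes tested were called, 11.8% higher and 8.12% lower. Members were called in both directions: the stress-inducible HSP70 genes HSPA1A and HSPA1B, their J-domain partner DNAJB1 and the small heat shock protein HSPB1 rose, and the constitutive HSP70 gene HSPA8 and the HSP110 gene HSPH1 fell. HSPD1, HSP90AB1 and the inducible HSP90 gene HSP90AA1 were lower but under the fold for a call, and BAG3 was not called. The median change was −0.16 over the members and 0.00 over all genes. In NCI-H660 shMYCL against shCtrl, which asked the converse in neuroendocrine cells, 2 of the 10 were called, both higher, HSPA8 and HSPH1. DESeq2 also called 2, both higher, and at an unadjusted p under 0.05 in edgeR 7 were higher and 0 lower. Of the 16980 genes tested there, 16.2% were called, 7.18% higher and 8.99% lower. The median change there was 0.39 over the members and 0.00 over all genes. In bulk libraries, fewer cells with a transcript and less transcript per cell cannot be told apart.

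HSPA8 encodes the constitutive cytosolic HSP70, HSC70 (ENSG00000109971.15, GRCh38 chromosome 11, 123057489 to 123063230, minus strand), whose start region carried the exact elements printed above. Its level was 1624 and 1467 TPM in C4-2B control, 836 and 867 TPM in C4-2B MYCL, 1109 and 938 TPM in NCI-H660 shCtrl and 1782 and 1906 TPM in NCI-H660 shMYCL. No groups overlapped, and in both lines the libraries with more MYCL had less HSPA8. The order across the lines was another in CPM (counts scaled to library size). There the knockdown libraries, at 2073 and 2225, were below the C4-2B controls, at 2898 and 2594. The shCtrl libraries, at 1257 and 1124, were below those of C4-2B MYCL, at 1571 and 1761. The change was −0.72 ± 0.08 (SE, 2 libraries per group) in C4-2B (adjusted p = 3.62e-04) and 0.85 ± 0.11 in NCI-H660 (adjusted p = 5.35e-05). Both were among the called genes, and without any 1 library the value ran from −0.80 to −0.63 in C4-2B and from 0.77 to 0.93 in NCI-H660. Its exons overlap an antisense gene, ENSG00000288061, over 11.4% of their bases, which had 3 to 18 counts per library, and 17 rows named as its pseudogenes held 0.0213 to 0.04996% of its counts.

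HSPH1 encodes HSP110, a large HSP70 relative that acts as its nucleotide exchange factor and disaggregase partner (ENSG00000120694.21, chromosome 13, 31134973 to 31162388, minus strand). It measured 145 and 122 TPM in C4-2B control, 71.4 and 63.5 TPM in C4-2B MYCL, 98.6 and 73.1 TPM in NCI-H660 shCtrl and 125 and 138 TPM in NCI-H660 shMYCL. Groups within a line did not overlap, although the knockdown libraries overlapped the C4-2B controls on TPM. In CPM (counts scaled to library size) the knockdown libraries, at 239 and 257, were below those controls, at 412 and 355. HSPH1 fell by 0.82 on the log2 scale (SE 0.09, adjusted p = 2.29e-04) in C4-2B and rose by 0.61 ± 0.12 (SE, adjusted p = 0.00154) in NCI-H660. The NCI-H660 call was lost without shCtrl replicate 2, where the change was 0.45. Relative to HSPA8, HSPH1 stayed within 7.03 to 8.95% of the HSPA8 TPM in all 8 libraries.

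HSP90AA1 and HSP90AB1 encode the inducible and constitutive cytosolic HSP90 (ENSG00000080824.20, chromosome 14, 102080742 to 102139699, minus strand, and ENSG00000096384.21, chromosome 6, 44246166 to 44253888, plus strand). HSP90AA1 measured 1093 and 974 TPM in C4-2B control, 742 and 729 TPM in C4-2B MYCL, 2862 and 2422 TPM in NCI-H660 shCtrl and 3222 and 3577 TPM in NCI-H660 shMYCL. HSP90AB1 measured 1887 and 1708 TPM in C4-2B control, 1154 and 1184 TPM in C4-2B MYCL, 1984 and 1759 TPM in NCI-H660 shCtrl and 2378 and 2773 TPM in NCI-H660 shMYCL. Both were lower in both MYCL libraries of C4-2B and higher in both knockdown libraries, with no overlap within a line. Their changes had adjusted p-values under 0.05 but stayed below the fold needed for a call. These were −0.34 ± 0.08 (SE, adjusted p = 0.00957) and −0.48 ± 0.08 (adjusted p = 0.00197) in C4-2B, and 0.35 ± 0.11 (adjusted p = 0.0275) and 0.44 ± 0.11 (adjusted p = 0.00797) in NCI-H660, for HSP90AA1 and HSP90AB1. HSP90AB1 crossed that fold in C4-2B without control replicate 2 (−0.56) or MYCL replicate 2 (−0.55), and on the log2(TPM + 1) scale (−0.62), and in NCI-H660 without shMYCL replicate 1 (0.54). The ratio of HSP90AA1 to HSP90AB1 was 0.570 to 0.644 in C4-2B and 1.29 to 1.44 in NCI-H660, so the inducible form was the more abundant of the pair in the neuroendocrine libraries.

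HSPD1 encodes mitochondrial HSP60 (ENSG00000144381.19, chromosome 2, 197486584 to 197516737, minus strand), the member with both an exact heat shock element and CACGTG in its windows. It measured 1020 and 962 TPM in C4-2B control, 731 and 754 TPM in C4-2B MYCL, 641 and 559 TPM in NCI-H660 shCtrl and 622 and 712 TPM in NCI-H660 shMYCL. The C4-2B groups did not overlap and the NCI-H660 groups did. The changes were −0.26 ± 0.08 (SE, adjusted p = 0.0278) in C4-2B, below the fold for a call, and 0.15 ± 0.11 (adjusted p = 0.332) in NCI-H660. Its neighbour HSPE1, whose product HSP10 caps HSP60 and whose start faces away from it, had a change of −0.57 ± 0.08 (adjusted p = 0.00115) in C4-2B and was called there. The HSPE1 call was lost without C4-2B control replicate 1 (−0.47).

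HSPB1 encodes HSP27, a small heat shock protein that holds unfolded proteins and binds actin filaments (ENSG00000106211.11, chromosome 7, 76302673 to 76304295, plus strand). It measured 404 and 440 TPM in C4-2B control, 756 and 779 TPM in C4-2B MYCL, 373 and 442 TPM in NCI-H660 shCtrl and 465 and 360 TPM in NCI-H660 shMYCL. The C4-2B MYCL libraries stood above all 6 others, which overlapped one another on TPM. In CPM, HSPB1 was 183 and 195 in C4-2B control, above 106 and 135 in NCI-H660 shCtrl and 135 and 107 in NCI-H660 shMYCL. The change was 1.01 ± 0.08 (SE, adjusted p = 5.58e-05) in C4-2B and 0.00 ± 0.13 (adjusted p = 0.989) in NCI-H660.

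DNAJB1 encodes HSP40, the J-domain protein that loads clients on HSP70 (ENSG00000132002.10, chromosome 19, 14514769 to 14560391, minus strand). It measured 46.1 and 46.4 TPM in C4-2B control, 75.6 and 69.3 TPM in C4-2B MYCL, 146 and 139 TPM in NCI-H660 shCtrl and 146 and 157 TPM in NCI-H660 shMYCL. The C4-2B groups were apart, and all NCI-H660 libraries were higher than any C4-2B library and overlapped each other. The change was 0.79 ± 0.07 (SE, adjusted p = 1.01e-04) in C4-2B and 0.10 ± 0.10 (adjusted p = 0.531) in NCI-H660. Its exons overlap those of TECR on the other strand over 6.41% of their bases, and strand use in the counting is not given in the sources used here.

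HSPA1A and HSPA1B are neighbouring genes for the stress-inducible HSP70 and encode nearly the same protein (ENSG00000204389.11, chromosome 6, 31815543 to 31817946, and ENSG00000204388.7, chromosome 6, 31827738 to 31830254, both plus strand). HSPA1B measured 68.3 and 71.8 TPM in C4-2B control, 122 and 112 TPM in C4-2B MYCL, 111 and 129 TPM in NCI-H660 shCtrl and 150 and 147 TPM in NCI-H660 shMYCL. HSPA1A measured 0.830 and 0.860 TPM in C4-2B control, 2.28 and 1.87 TPM in C4-2B MYCL, 36.2 and 40.9 TPM in NCI-H660 shCtrl and 50.5 and 55.4 TPM in NCI-H660 shMYCL. Both were higher in both C4-2B MYCL libraries than in the controls, and in NCI-H660 both were higher after knockdown, without overlap. On TPM, HSPA1B was highest in NCI-H660 shMYCL. In CPM it was highest in C4-2B MYCL, at 260 and 258, against 197 and 194 in NCI-H660 shMYCL. In C4-2B the changes were 1.42 ± 0.31 (SE, adjusted p = 0.00744) for HSPA1A, on 39 and 29 counts against 64 and 53, and 0.88 ± 0.07 (adjusted p = 5.63e-05) for HSPA1B, on 4248 and 3240 counts against 4559 and 4280. In NCI-H660 they were 0.45 ± 0.12 (adjusted p = 0.0101) and 0.29 ± 0.11 (adjusted p = 0.0712), neither called. On the log2(TPM + 1) scale, which shrinks changes of rare transcripts, the HSPA1A difference in C4-2B was 0.73. In NCI-H660 HSPA1A crossed the fold without shCtrl replicate 2 (0.56) or shMYCL replicate 1 (0.53).

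The division of reads between this pair is uncertain. Of all 100-base words in the HSPA1A transcript, 69.5% also occur in HSPA1B, and the deposited values of both genes were off a whole number by over 0.05 in 7 of 8 libraries. HSPA1A held 0.889 to 1.39% of the pair's counts in C4-2B and 22.3 to 26.0% in NCI-H660. The single-gene values are therefore split by the authors' counting, and the pair summed rose by 0.89 in C4-2B (adjusted p = 5.51e-05) and stood at 0.33 in NCI-H660 (adjusted p = 0.0405), under the fold for a call. In addition, 36.6% of the HSPA1B exon bases are annotated to a second gene on the same strand, ENSG00000285565.

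BAG3 encodes a cochaperone that links HSP70 with small heat shock proteins and autophagy (ENSG00000151929.11, chromosome 10, 119651380 to 119677819, plus strand). It measured 22.9 and 26.6 TPM in C4-2B control, 22.9 and 19.98 TPM in C4-2B MYCL, 11.0 and 11.9 TPM in NCI-H660 shCtrl and 17.2 and 15.4 TPM in NCI-H660 shMYCL. The C4-2B groups overlapped and the NCI-H660 groups did not. The change was −0.07 ± 0.10 (SE, adjusted p = 0.618) in C4-2B and 0.47 ± 0.14 (adjusted p = 0.0259) in NCI-H660, below the fold for a call, which it crossed without shCtrl replicate 2 (0.60) or shMYCL replicate 2 (0.55).

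**Figure D3:**
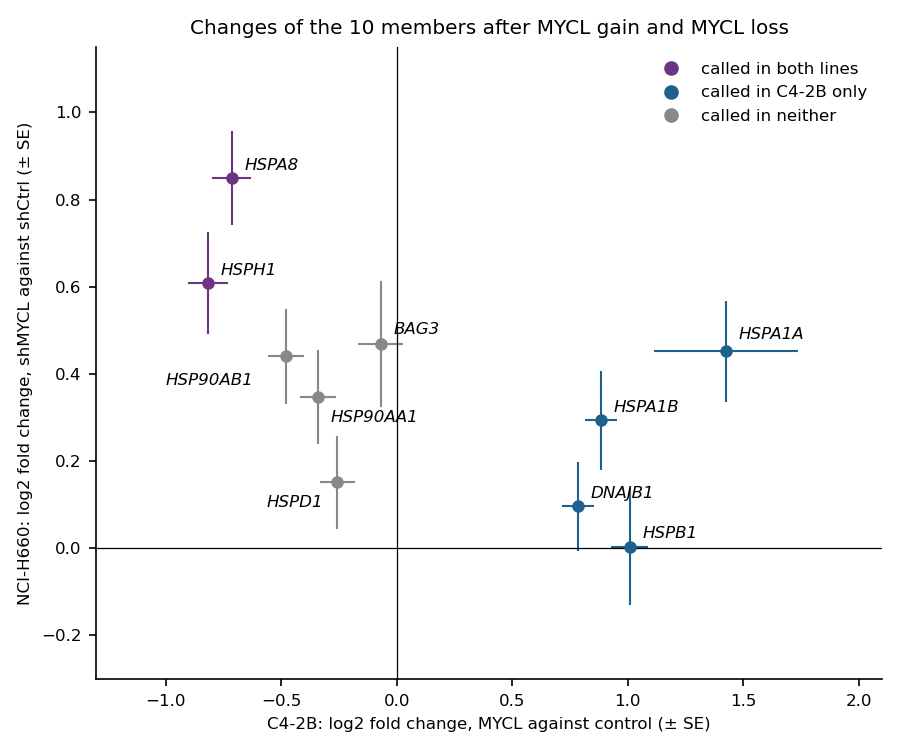
Log2 fold change of each member in C4-2B MYCL against control (horizontal axis) and in NCI-H660 shMYCL against shCtrl (vertical axis), with bars of 1 standard error. HSPA8 and HSPH1 lie at upper left, with −0.72 and −0.82 in C4-2B and 0.85 and 0.61 in NCI-H660, and HSPA1A, HSPA1B, DNAJB1 and HSPB1 lie to the right at 0.79 to 1.42.

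Whether the effect of MYCL differed between the lines was tested over all 8 libraries, as the change from low to high MYCL in C4-2B (MYCL minus control) minus the same in NCI-H660 (shCtrl minus shMYCL). The difference was called for 4 of the 10 members, all higher in C4-2B, where 17.9% of the 19605 genes tested were called, 9.59% higher and 8.33% lower. It was 1.88 ± 0.24 (SE, adjusted p = 2.03e-04) for HSPA1A, 1.17 ± 0.14 (adjusted p = 1.24e-04) for HSPA1B, 0.88 ± 0.11 (adjusted p = 2.35e-04) for DNAJB1 and 1.01 ± 0.18 (adjusted p = 0.00190) for HSPB1. With HSPA1A and HSPA1B summed, the pair differed by 1.22 ± 0.13 (adjusted p = 8.21e-05) and 3 of 9 were called. These are the genes that rose in C4-2B and were not called in NCI-H660. For HSPA8 the difference was 0.13 ± 0.14 (adjusted p = 0.557), for HSPH1 −0.21 ± 0.16 (adjusted p = 0.392), for HSP90AA1 0.00 ± 0.13 (adjusted p = 1.00) and for HSP90AB1 −0.04 ± 0.13 (adjusted p = 0.916). BAG3 and HSPD1, at 0.39 ± 0.18 (adjusted p = 0.138) and −0.11 ± 0.13 (adjusted p = 0.628), were not called either. Raising and lowering MYCL was done with different constructs, so line, construct and direction of the manipulation cannot be told apart in this difference.

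Ratios within a library do not depend on how libraries are scaled to one another. HSPA1A and HSPA1B together were 4.26 and 4.95% of the HSPA8 TPM in C4-2B control, 14.9 and 13.2% in C4-2B MYCL, 13.3 and 18.1% in NCI-H660 shCtrl and 11.2 and 10.6% in NCI-H660 shMYCL. The inducible share of HSP70 mRNA thus set the C4-2B control apart from the other groups, and it was lower in both knockdown libraries than in both NCI-H660 controls. DNAJB1 was 2.84 and 3.16% of the HSPA8 TPM in C4-2B control, 9.05 and 7.99% in C4-2B MYCL, 13.2 and 14.8% in NCI-H660 shCtrl and 8.19 and 8.26% in NCI-H660 shMYCL. In both lines the libraries with more MYCL had the higher ratio of DNAJB1 to HSPA8, without overlap. In NCI-H660 both ratios were lower after knockdown although neither DNAJB1 nor the HSPA1 pair fell. Mean DNAJB1 was 142 TPM in shCtrl and 152 TPM in shMYCL, and the pair was 148 and 170 TPM against 200 and 202 TPM. HSPA8, the divisor, had means of 1024 TPM in shCtrl and 1844 TPM in shMYCL. With 2 libraries against 2 these ratios are given as descriptions.

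**Figure D4:**
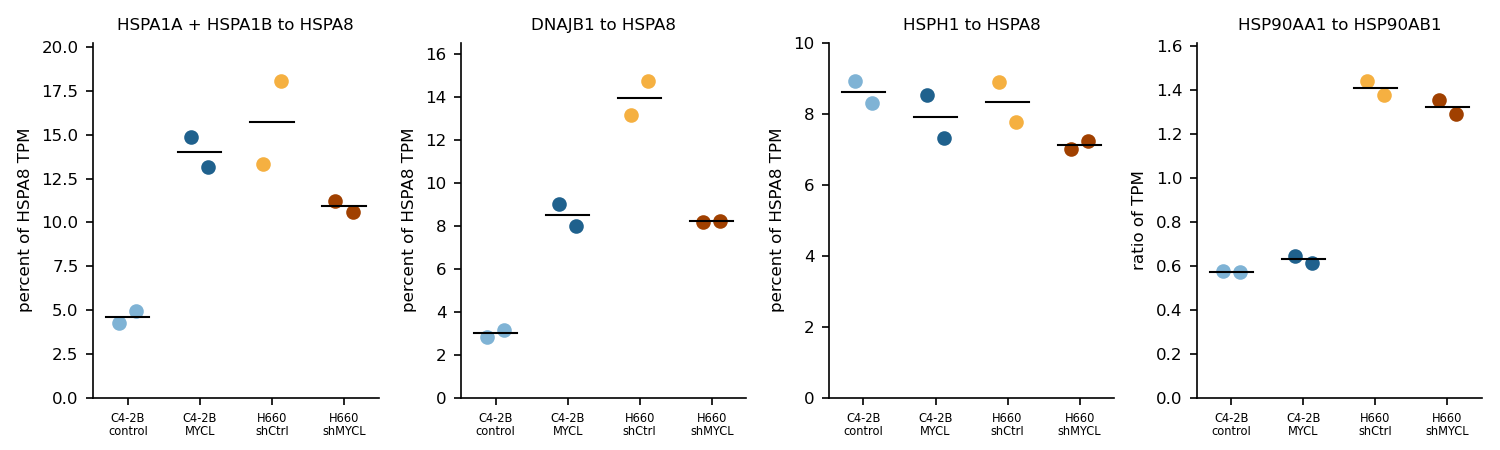
Ratios between members within each library, with 1 point per library and a line at the group mean. From left to right, HSPA1A plus HSPA1B, DNAJB1 and HSPH1 as percent of the HSPA8 TPM, and the ratio of HSP90AA1 to HSP90AB1 TPM. The first is 4.26 to 4.95% in C4-2B control and 10.6 to 18.1% elsewhere, and the last is 1.29 to 1.44 in NCI-H660 and at most 0.644 in C4-2B.

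NCI-H660 shCtrl was set against C4-2B control to see how the members stood in neuroendocrine and adenocarcinoma cultures. These libraries are also the controls of the comparisons above, and line, vector and medium supplements cannot be told apart. Of the 10 members, 9 were called, 3 higher and 6 lower in NCI-H660, where 71.6% of the 18748 genes tested were called, 37.4% higher and 34.2% lower. HSPA1A was higher by 5.20 ± 0.17 (SE), DNAJB1 by 1.03 ± 0.09 and HSP90AA1 by 0.75 ± 0.09, with adjusted p-values of 1.20e-10, 4.01e-07 and 9.43e-06. The HSPA1A value rests on the division of reads described above: with HSPA1A and HSPA1B summed, the pair was higher by 0.53. The largest differences in the other direction were those of BAG3 (−1.73 ± 0.13, adjusted p = 2.08e-07), HSPD1 (−1.34 ± 0.08, adjusted p = 2.84e-08), HSPH1 (−1.25 ± 0.12, adjusted p = 1.10e-06) and HSPA8 (−1.21 ± 0.09, adjusted p = 1.50e-07). HSPB1 (−0.66 ± 0.11, adjusted p = 2.03e-04) and HSP90AB1 (−0.56 ± 0.08, adjusted p = 6.25e-05) differed less, and HSPA1B was at 0.17 ± 0.10 (adjusted p = 0.154). The call was lost for HSPB1 without shCtrl replicate 1 (−0.46) and for HSP90AB1 without C4-2B control replicate 1 (−0.49) or shCtrl replicate 2 (−0.49). On the log2(TPM + 1) scale, the median of all genes moved from 0.04 to 0.57, HSP90AB1 stood at 0.06, HSPB1 at −0.06 and HSPA1B at 0.77 (limma, adjusted p = 9.12e-04), so that 4 members were called higher and 4 lower. On that scale 8530 genes were called higher and 3415 lower in place of 7014 and 6413. Mitochondrially encoded genes took 9.63 to 10.7% of the counts in C4-2B and 3.50 to 3.83% in NCI-H660, and the part of this in the values was not tested.

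The other genes of the chaperone system were read from the same fits in 9 lists. Over all genes tested, 11.8% were called higher and 8.12% lower in C4-2B, and 7.18% higher and 8.99% lower in NCI-H660. Of the HSF regulators, 0 of 6 tested were called in either line by edgeR or DESeq2, and 1 in C4-2B and 0 in NCI-H660 had an unadjusted p under 0.05. The difference for HSF1, the master factor, was 0.02 ± 0.11 (SE, adjusted p = 0.922) in C4-2B and 0.13 in NCI-H660 (adjusted p = 0.393). These values are of HSF1 mRNA, and the activity of the protein was not measured. Of the other HSP70 and HSP110 genes, 3 of 8 tested were called higher in C4-2B and 2 of 8 in NCI-H660, and 0 lower. HSPA6, a strictly stress-inducible HSP70, had 21 and 22 counts in C4-2B control and 126 and 150 in C4-2B MYCL, a change of 3.31 ± 0.30 (adjusted p = 1.10e-04). Its close copy HSPA7 had at most 4 counts in any library. HSPA2, known best from testis, had 6 and 0 counts in NCI-H660 shCtrl and 29 and 39 in shMYCL, a fitted change of 3.63 ± 0.73 (adjusted p = 0.00217) that ran from 2.61 to 8.19 when single libraries were left out and was not called by DESeq2 (adjusted p = 0.143). HSPA12A, a distant relative of HSP70, was called higher in both lines on counts (1.05 ± 0.21 with adjusted p = 0.00523, and 0.88 ± 0.21 with adjusted p = 0.00700), but on log2(TPM + 1) it stood at −0.34 and −0.31, so its direction depends on the scale.

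Among the HSP40 genes, 1 of 14 was called higher and 2 lower in C4-2B, where 11.8% of all genes were called higher and 8.12% lower. In NCI-H660 0 of 15 were called by edgeR or DESeq2, and 5 higher and 4 lower had an unadjusted p under 0.05. DNAJB5, a close relative of DNAJB1, measured 5.52 and 5.40 TPM in C4-2B control and 11.1 and 11.6 TPM in C4-2B MYCL, a rise of 1.20 ± 0.12 (SE, adjusted p = 1.45e-04). DNAJC9, a histone chaperone with a J domain, measured 76.0 and 70.4 TPM against 40.6 and 30.5 TPM, a change of −0.87 ± 0.10 (adjusted p = 2.75e-04). Of 8 other small heat shock genes, 2 had enough counts for the test in C4-2B and 0 in NCI-H660. Both rose in C4-2B: CRYAB, a crystallin, from 100 and 96 to 138 and 162 counts in shallower libraries (1.24 ± 0.23, adjusted p = 0.00332), and HSPB8, a partner of BAG3, from 6 and 19 to 57 and 54 counts (2.71 ± 0.56, adjusted p = 0.00576), a change that ran from 1.94 to 4.02 when single libraries were left out and was lost with limma on unfiltered log2(TPM + 1) (adjusted p = 0.0623).

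The calls among the cochaperones of HSP70 and HSP90 stand beside 8.12% of all genes called lower in C4-2B and 7.18% called higher in NCI-H660. Of the BAG and other exchange factors, 2 of 8 were called lower in C4-2B and 2 of 8 higher in NCI-H660. BAG1, an HSP70 exchange factor, measured 80.9 and 73.8 TPM in C4-2B control, 32.9 and 30.8 TPM in C4-2B MYCL, 47.5 and 44.2 TPM in NCI-H660 shCtrl and 67.2 and 71.1 TPM in NCI-H660 shMYCL. It was lower with more MYCL in both lines, at −1.14 ± 0.08 (SE, adjusted p = 4.25e-05) and 0.52 ± 0.12 (adjusted p = 0.00405), the latter lost without shMYCL replicate 2 (0.49). BAG2, an inhibitor of the ubiquitin ligase CHIP, fell by 0.68 (SE 0.09, adjusted p = 6.62e-04) in C4-2B. HSPBP1, another exchange factor, rose by 0.57 ± 0.18 (adjusted p = 0.0275) in NCI-H660, a call lost without shCtrl replicate 1 (0.38) or either shMYCL replicate (0.58 and 0.59) and with DESeq2 (adjusted p = 0.0823). Of the HSP90 cochaperones, 2 of 15 were called lower in C4-2B, FKBP4 (−0.63 ± 0.09, adjusted p = 7.00e-04), an immunophilin of steroid receptor complexes, and CHORDC1 (−0.55 ± 0.08, adjusted p = 0.00142), the latter lost without control replicate 1 (−0.45). In NCI-H660 1 of 15 was called, FKBP5 (0.56 ± 0.10, adjusted p = 0.00101), an immunophilin encoded by a glucocorticoid target gene.

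For the next lists, the share of all genes called lower in C4-2B was 8.12%, and in NCI-H660 7.18% were called higher and 8.99% lower. Of the mitochondrial chaperones and proteases, HSPE1 was the 1 gene of 14 called in C4-2B and 0 were called in NCI-H660 by edgeR or DESeq2 (5 higher and 1 lower at an unadjusted p under 0.05). Of the cytosolic chaperonin and prefoldin genes, which fold actin and tubulin, 4 of 14 were called lower in C4-2B and 0 in NCI-H660 by edgeR or DESeq2 (2 higher and 0 lower at an unadjusted p under 0.05). Among the genes called in C4-2B, the changes reached from TCP1 (−0.93 ± 0.08, SE, adjusted p = 8.49e-05) to CCT5 (−0.50 ± 0.08, adjusted p = 0.00153). CCT5 dropped under the fold minimum without control replicate 1 (−0.46) or MYCL replicate 1 (−0.42) and with DESeq2 (−0.50). At an unadjusted p under 0.05 in edgeR, 10 genes of this list were lower and 2 higher in C4-2B, and the highest change was 0.39. The median change in C4-2B was −0.22 for this list, −0.24 for the HSP90 cochaperones and −0.25 for the exchange factors, against 0.00 over all genes.

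The chaperones of the endoplasmic reticulum, which answer to other stress sensors than HSF1, were called in 1 direction in each line. In C4-2B 7 of 9 were called higher and 0 lower (4 higher and 0 lower by DESeq2, 8 and 0 at an unadjusted p under 0.05), with a median of 0.86, where 11.8% of all genes were called higher. In NCI-H660 6 of 9 were called lower and 0 higher (5 lower and 0 higher by DESeq2, 8 and 0 at an unadjusted p under 0.05), with a median of −0.59 and the highest at 0.09, where 8.99% of all genes were called lower. Among the genes called in C4-2B, the largest change was that of DNAJB9 (2.12 ± 0.12, SE, adjusted p = 1.11e-05), a J-domain partner of BiP. The smallest among them was that of HSP90B1 (0.64 ± 0.14, adjusted p = 0.00723), the HSP90 of this compartment, lost without MYCL replicate 2 (0.36) or with DESeq2 (adjusted p = 0.0503). Over all 9 genes the lowest change in C4-2B was 0.27. In NCI-H660 the called genes ranged from HSP90B1 (−0.57 ± 0.11, adjusted p = 0.00188), lost without shMYCL replicate 1 (−0.43), to SDF2L1 (−0.82 ± 0.24, adjusted p = 0.0210), lost without shCtrl replicate 2 (−0.54) or shMYCL replicate 2 (−0.64) and with DESeq2 (adjusted p = 0.0646).

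**Figure D5:**
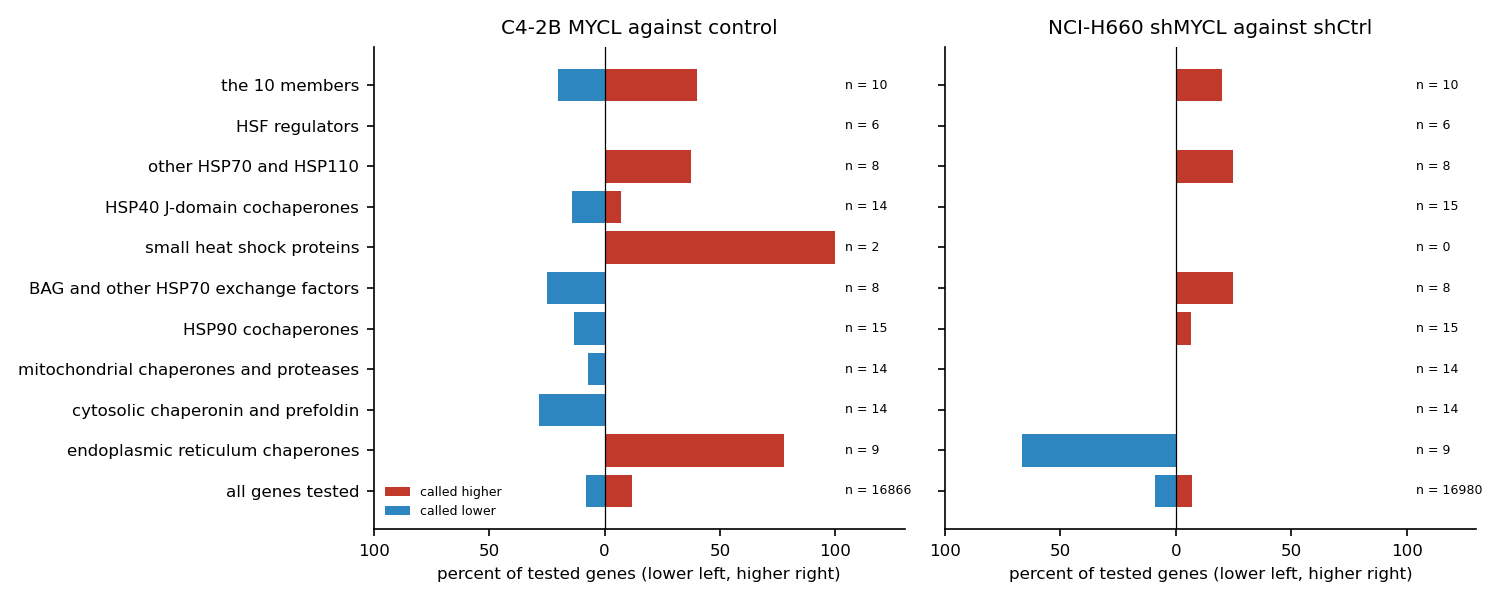
Percent of the tested genes of each chaperone list called higher (red, to the right) or lower (blue, to the left) in C4-2B MYCL against control and in NCI-H660 shMYCL against shCtrl, with the number tested at the right. In endoplasmic reticulum chaperones 7 of 9 are higher in C4-2B and 6 of 9 lower in NCI-H660, whereas the members of the cytosolic set split in C4-2B.

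The genes whose pattern was most like that of each called member were sought over the 8 libraries by Pearson's r of log2 CPM (counts scaled to library size), centred within each line, among 10640 genes. As the points share libraries and fall into 4 groups, 123 to 253 genes per member had an r over 0.95, so the ranking is a description. HSPA8 was closest to EIF2S1 (r = 0.996), DNTTIP2 (0.996) and KMT5A (0.990), and HSPH1 to PRPF38A (0.995), EIF4ENIF1 (0.995) and NOL11 (0.995). HSPA1B was closest to TPBG (0.996), NAXD (0.994) and EEIG1 (0.993), and HSPA1A to NRBP2 (0.993), ZNF251 (0.993) and GFI1 (0.990). DNAJB1 was closest to CLDND1 (0.995), IDS (0.994) and OPTN (0.994), and HSPB1 to ETFA (0.991), PLA2G6 (0.989) and ANKDD1A (0.989).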

How the data were processed

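RNA-seq of 8 libraries (2 per group) was analysed from 2 deposited tables. The authors deposited estimated counts per gene, unnormalised and not always whole (19.5% of nonzero values were off a whole number by over 0.05), and TPM per gene from the same libraries, in a table of 65535 rows that held all 10 members. Per the labels, the build was hg38; the study's methods describe TPM as counts divided by gene length from Ensembl annotation, but HSPA12A, whose direction differed between the tables, did not follow a fixed length. Aligner and counter are not given in the sources used here. Counts were rounded and tested with edgeR 4.0.16 in R 4.3.3 (TMM, filterByExpr, quasi-likelihood test, Benjamini-Hochberg over all genes), each line by itself and all 4 groups for the difference between lines. The script was tested on simulated data. CPM were TMM-normalised over all libraries. Positions are from GENCODE 44, which held 9 of the 10 identifiers in another version number.

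The members and gene lists were chosen with earlier results of these data known. Named genes were the 10 members, the called genes of each chaperone list with the largest and the smallest change in each line, the 3 genes most like each called member, and MYCL. HSF1 and HSPA7 were added as context after their values were seen. Alternatives were DESeq2 1.42.0, RLE size factors, 2 count filters, 2 fold minimums, summed rows, limma 3.58.1 on log2(TPM + 1) or log2(TPM + 0.1), a replicate block and leaving out each library.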

Additional observations from a re-analysis of the deposited data

Results flagged for a closer look

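For 4 members the effect of MYCL, taken as high against low in each line, differed between C4-2B and NCI-H660 in edgeR's quasi-likelihood test: HSPA1A by 1.88 on the log2 scale (SE 0.24, adjusted p = 2.03e-04), HSPA1B by 1.17 (SE 0.14, adjusted p = 1.24e-04; 1.22 for the pair summed), DNAJB1 by 0.88 (SE 0.11, adjusted p = 2.35e-04) and HSPB1 by 1.01 (SE 0.18, adjusted p = 0.00190). Of the named genes of the other chaperone lists, the effect was higher in C4-2B for HSPA6 (3.86, adjusted p = 0.00369, on 4 to 14 counts per NCI-H660 library and adjusted p = 0.0904 without shMYCL replicate 2), HSPA12A (1.93, adjusted p = 0.00109, with the opposite sign on TPM), DNAJB5 (0.91, adjusted p = 0.00550) and DNAJB9 (1.52, adjusted p = 2.46e-04). HSPB8 is given no value here, since both NCI-H660 shCtrl libraries had 0 counts. It was lower in C4-2B for BAG1 (−0.62, adjusted p = 0.00535), BAG2 (−0.88, adjusted p = 0.00107), FKBP4 (−0.53, adjusted p = 0.0172), HSPE1 (−0.70, adjusted p = 0.00191) and TCP1 (−0.56, adjusted p = 0.0112). The calls of FKBP4 and TCP1 were lost without C4-2B control replicate 1 (−0.44 and −0.49) or NCI-H660 shMYCL replicate 1 (adjusted p = 0.0614 for FKBP4, −0.48 for TCP1), and that of FKBP4 also without C4-2B MYCL replicate 1 (−0.45) or shCtrl replicate 2 (−0.44).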

How the results depend on the processing

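Of 670 member values under the alternatives, 620 kept their direction and side of the threshold, 15 gained a call, 12 lost one with the same sign and 23 changed sign, 3 of which also lost a call (HSP90AB1 between the lines on TPM), and the cause was not tested where no construction shows it. With no minimum fold change, the calls in NCI-H660 were 6 members and 4204 genes, and in C4-2B 9 members (4 higher, 5 lower) and 5895 genes. With a minimum of 1 they were 2 members and 1411 genes in C4-2B, 0 members and 1022 genes in NCI-H660 and 1666 genes for the difference between lines. With limma on unfiltered log2(TPM + 1) there were 1940, 1 and 1898 genes in these 3 comparisons and 0 members in NCI-H660, with HSPA1A lost in C4-2B and HSPB1 for the difference. In NCI-H660, limma called 1702 genes on log2(TPM + 1), 1600 on log2(TPM + 0.1) and 1692 with libraries centred. Requiring 10 counts in every library left 8934 genes called between the lines. Leaving out single libraries gave 2 to 4 members called in NCI-H660 (4 without shMYCL replicate 1). On log2(TPM + 1) the calls in C4-2B were 1006 higher and 1997 lower in place of 1986 and 1369, with the median of all genes at −0.14, and for the difference 1054 and 1902 in place of 1880 and 1633, with the median at −0.11.

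Sign changes were near 0 except for HSPA12A. Between the lines, the members' median was 0.000858 (pseudocount 1) and 0.000807 (0.1) on TPM, and HSP90AB1 was 0.0571 and 0.0572. BAG3 in C4-2B ran from −0.198 to 0.0474 and HSPB1 in NCI-H660 from −0.166 to 0.197 without single libraries, the latter being −1.95e-04 unfiltered and −0.00417 with 10 counts in every library. For the difference between lines, HSPA8 was −0.00486 and −0.00497 on TPM. HSP90AA1 was −0.0136 unfiltered, −0.121 and −0.122 on TPM and −0.0285 centred, and ran from −0.0830 to 0.0836 without single libraries, and HSP90AB1 from −0.15 to 0.0429. HSPA12A on TPM (pseudocount 1, 0.1, and centred) was −0.34, −0.41 and −0.19 in C4-2B, −0.31, −0.39 and −0.318 in NCI-H660, and −0.65, −0.80 and −0.56 for the difference.

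The replicate numbers are not stated to mark shared cultures. Same-numbered libraries deviated with correlations of 0.0262 in C4-2B and 0.0211 in NCI-H660. With a replicate block, 6, 2, 9 and 4 members and 3536, 2949, 13118 and 3576 genes were called in C4-2B, in NCI-H660, between the lines and for the difference. HSPA1A in C4-2B rested on 29 to 64 counts per library.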
